A study of Homo sapiens with 3 samples.

Results

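The 56 genes described here encode the machinery that copies DNA in S phase: the proteins that mark and license replication origins, the helicase that unwinds them, the polymerases, the sliding clamp and its loader, the enzymes that supply nucleotides, and proteins that copy chromatin or protect the fork. They are known replication genes, chosen by name with earlier results of these data in view, and were found in the deposited table by Ensembl identifier. All 56 were present among its 19869 entries, and all 56 passed the filter on low values, a mean of at least 1 FPKM over the libraries (fragments per kilobase of transcript, scaled by library size). They were sorted into 12 role groups.

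RNA was sequenced from Hep3B, an established human liver cancer cell line, with 1 library in each of 3 groups. The HKR3 library came from cells transfected with a pcDNA3.1 plasmid encoding HKR3, an older name of the zinc finger protein ZBTB48. The second library is labelled siTERT, for transfection with an siRNA targeting TERT, the catalytic subunit of telomerase. The control is labelled with the transfection reagent Fugene and with the words NT and Empty, and the labels do not say which nucleic acid, if any, these cells received. All cells were of the same line and were cultured in the same medium. The time between transfection and RNA extraction is not stated in the labels.

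ZBTB48 was at 2842 FPKM in the HKR3 library, 4.89 FPKM in the library labelled siTERT and 4.91 FPKM in the control. TERT was at 4.25, 5.37 and 4.69 FPKM in the same order, so the library labelled siTERT did not have less TERT, and it is called by its label throughout. The 8 hepatocyte and hepatoma markers examined, among them albumin and alpha-fetoprotein, were all at 102 FPKM or more in each library, and 6 markers of blood, endothelial and connective tissue cells were at 0.0457 FPKM or less.

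Eukaryotic cells prepare origins in G1, when the origin recognition complex, CDC6 and CDT1 load the MCM2-7 helicase onto DNA, and geminin keeps CDT1 from loading it again later in the cycle. In S phase, CDC45 and the GINS complex turn the helicase on, polymerase alpha and primase lay primers, and polymerases epsilon and delta extend them on the PCNA clamp. Many of these genes are transcribed around the G1/S transition under E2F transcription factors, so in growing cells their transcript levels commonly follow the share of cells near S phase.

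In the HKR3 library, replication genes were lower than in the control, by the median of each of the 12 role groups. Differences were calculated as log2(FPKM + 1), a scale that understates those of weakly expressed genes. Every count of genes past 2-fold or 1.5-fold is on this scale, so it can leave out genes past that fold in FPKM. The median difference of the 56 genes was -0.49, with quartiles of -0.79 and -0.36, against a median of -0.02 and quartiles of -0.36 and 0.36 over the 10974 genes that passed the filter. Of the 56, 10 were at least 2-fold lower, or 17.9%, beside 2.52% of all genes. They were MCM4, MCM5, MCM6, GINS2, POLA2, PCNA, TK1, DUT, UHRF1 and UNG. By FPKM alone, CHAF1B and POLD3 were also over 2-fold lower, at ratios of 0.452 and 0.458 to the control. None was at least 2-fold higher, beside 5.52% of all genes. At least 1.5-fold lower levels were seen in 21 of 56, or 37.5%, beside 12.7% of all genes, and 51 of 56 were below 0, beside 51.4%. In RNA from whole cultures, fewer cells in S phase and less RNA of these genes per cell cannot be told apart.

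Each group held 1 library, so these differences have no replicate error, and no p-value is given. Sequencing depth is not stated in the sources used here. From the smallest steps between values of weakly expressed genes, it was estimated at 1.13e+07 fragments for the HKR3 library, 1.15e+07 for the library labelled siTERT and 1.04e+07 for the control. On fragments estimated in this way from the shortest coding transcript of each gene, the 95% counting interval of the ratio of HKR3 library to control lay below 1 for 43 of 56 genes, included 1 for 13 and lay above 1 for none. The shortest transcript gives the fewest fragments, so these intervals are too wide for genes expressed from longer transcripts. These intervals cover counting error only. They were not computed over all genes, so no background share stands beside these counts. Exons of 18 of the 56 genes overlap another annotated gene on the opposite strand, over at least 15% of exon bases in TYMS, MCM2, GINS4, DUT and GINS3, and fragments of such partners cannot be told apart if strand was not used in counting.

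**Figure D1:**
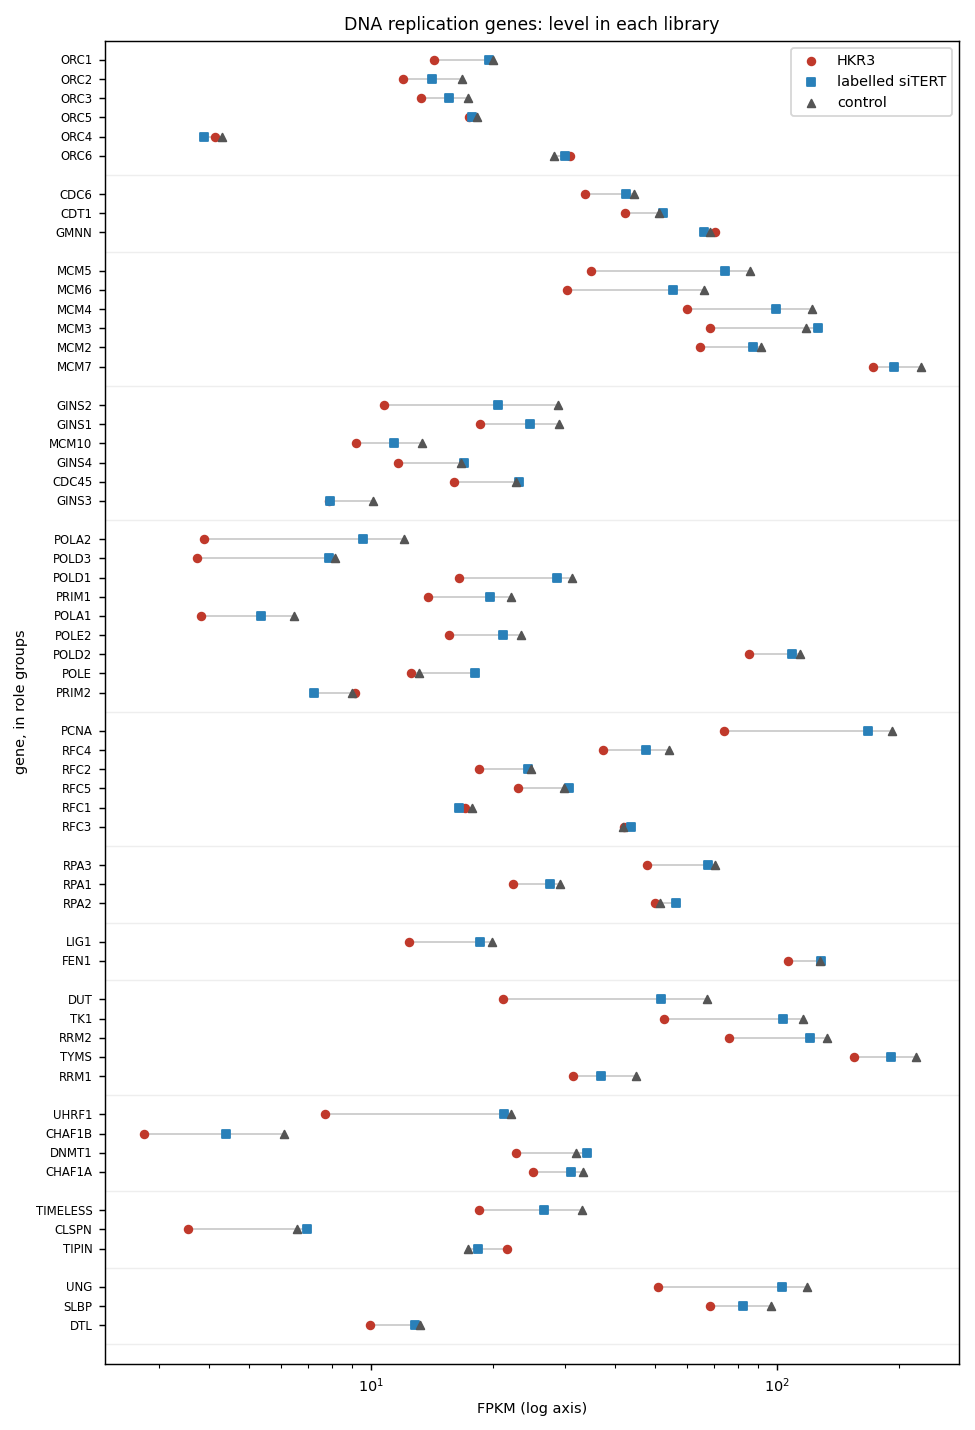
Level of each of the 56 replication genes in FPKM, on a log axis, in the HKR3 library (circles), the library labelled siTERT (squares) and the control (triangles), in role groups from origin recognition at the top to DTL, SLBP and UNG at the bottom. The HKR3 library was the lowest of the 3 for 49 genes, with long gaps for DUT, UHRF1, POLA2 and PCNA and overlapping symbols for ORC5, RFC1 and RFC3.

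Origin recognition and licensing genes had the medians nearest 0 between the HKR3 library and the control. The 6 ORC genes encode the complex that binds origins and recruits the helicase. Of these, 0 were at least 1.5-fold lower, beside 12.7% of all genes, and in so few genes that count is near the share. Their median between the HKR3 library and the control was -0.21. That median depended on the setting, at -0.36 when the filter was raised to a mean of 5 FPKM, which leaves out ORC4, and at -0.0669 after scaling to TPM, an equal sum in each library. ORC1, a subunit whose gene is a known E2F target, was at 14.3 FPKM in the HKR3 library, 19.5 FPKM in the library labelled siTERT and 20.03 FPKM in the control, a difference of -0.46 between the HKR3 library and the control. ORC2 was at 12.0, 14.1 and 16.8 FPKM and ORC3 at 13.3, 15.6 and 17.4 FPKM in the same order. ORC4 was at 4.14, 3.89 and 4.31 FPKM and ORC5 at 17.4, 17.8 and 18.2 FPKM. ORC6, the smallest subunit, was at 30.9 FPKM in the HKR3 library, 30.02 FPKM in the library labelled siTERT and 28.3 FPKM in the control, a difference of 0.12. ORC1, ORC2, ORC3 and ORC5 were lowest in the HKR3 library. The counting interval of the ratio to the control lay below 1 for ORC1 and, narrowly, for ORC2, and included 1 for the other 4.

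The loading factors were not all lower in the HKR3 library. CDC6, the ATPase that joins ORC at the origin, was at 33.7 FPKM in the HKR3 library, 42.4 FPKM in the library labelled siTERT and 44.5 FPKM in the control. CDT1, which brings in the helicase, was at 42.3, 52.5 and 51.1 FPKM. GMNN, encoding the CDT1 inhibitor geminin, was at 70.5, 66.3 and 68.4 FPKM, a difference of 0.04 between the HKR3 library and the control. The median of the 3 genes, -0.27, was -0.12 after scaling to TPM. The ratio of CDT1 to GMNN transcripts was therefore 0.60 in the HKR3 library, 0.792 in the library labelled siTERT and 0.747 in the control.

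The MCM2-7 helicase had the lowest median of the 12 groups, -0.89, with 3 of 6 genes at least 2-fold lower, beside 2.52% of all genes. MCM5 was at 34.9 FPKM in the HKR3 library, 74.6 FPKM in the library labelled siTERT and 85.9 FPKM in the control, a difference of -1.28 between the HKR3 library and the control. MCM6 was at 30.4, 55.5 and 66.0 FPKM, a difference of -1.09, and MCM4 at 60.02, 99.3 and 122 FPKM, a difference of -1.01. MCM3 followed at 68.4, 126 and 118 FPKM. The other two subunits differed least, MCM2 at 64.4, 87.0 and 91.1 FPKM and MCM7 at 172, 195 and 226 FPKM, with differences of -0.49 and -0.39. After scaling to TPM, and likewise after subtracting the median of genes of like mean FPKM, MCM5 was the only one of the 6 still at least 2-fold lower, with MCM4 at -0.86 and -0.79 and MCM6 at -0.95 in both. With that subtraction the median of the helicase was -0.67, and the lowest were fork protection at -0.78 and chromatin and methylation copying at -0.72. The 6 products form one ring in equal numbers, but their transcripts were unequal in every library, and more so in the HKR3 library: the highest, MCM7, was at 5.66 times the lowest, MCM6, in the HKR3 library, 3.50 times in the library labelled siTERT and 3.42 times in the control. The 6 genes together summed to 430.2 FPKM in the HKR3 library, 637 FPKM in the library labelled siTERT and 708 FPKM in the control. The ratio of this sum between the HKR3 library and the control was 0.607, beside 0.897 for the sum of all genes that passed the filter.

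**Figure D2:**
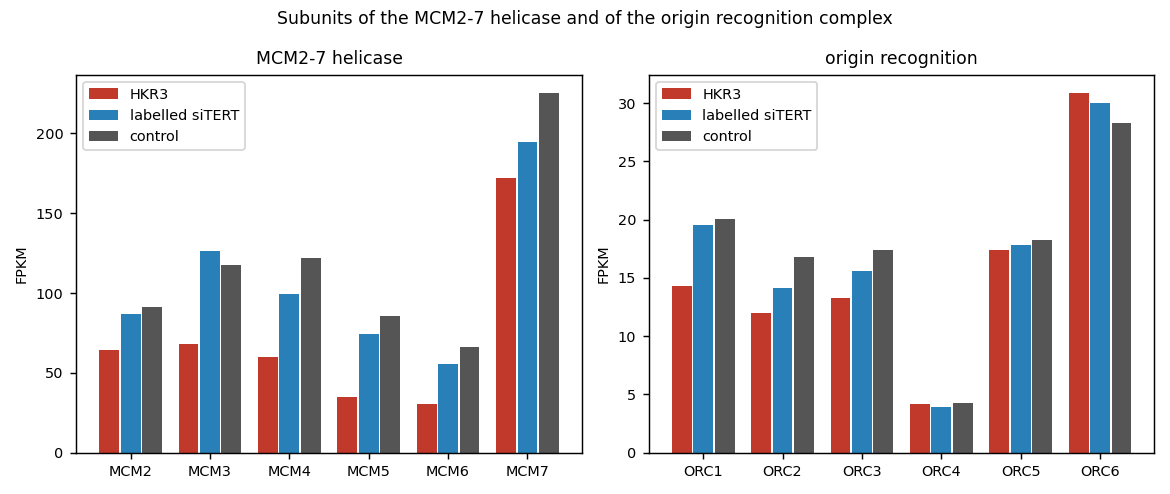
Level in FPKM of the 6 subunits of the MCM2-7 helicase (left) and the 6 subunits of the origin recognition complex (right), as bars for the HKR3 library, the library labelled siTERT and the control, with 1 library each and therefore no error bars. All 6 MCM genes were lowest in the HKR3 library, while ORC4, ORC5 and ORC6 differed little between libraries.

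Among the genes that activate the helicase, GINS2 stood out. GINS1 to GINS4 encode a complex of 4 subunits that binds the helicase together with CDC45. GINS2 was at 10.8 FPKM in the HKR3 library, 20.6 FPKM in the library labelled siTERT and 28.9 FPKM in the control, a difference of -1.35 between the HKR3 library and the control. GINS1 was at 18.5, 24.6 and 29.1 FPKM, GINS4 at 11.6, 17.0 and 16.7 FPKM, and GINS3 at 7.89, 7.93 and 10.1 FPKM. GINS1 and GINS2 were at nearly the same level in the control, but GINS2 was the lower of them in the HKR3 library. CDC45 was at 16.1, 23.1 and 22.8 FPKM, and MCM10, a further activation factor, at 9.17, 11.4 and 13.4 FPKM. All 6 genes of this group were lowest in the HKR3 library, although the counting interval of the ratio to the control included 1 for MCM10, from 0.470 to 1.02. That interval used the shortest coding transcript of MCM10, 469 bases beside 4587 for the longest, and would be narrower with a longer one.

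Polymerase and primase genes had a median of -0.63, with 5 of 9 at least 1.5-fold lower, beside 12.7% of all genes. By FPKM alone, POLE2 was also over 1.5-fold lower, at a ratio of 0.664 to the control. Within polymerase alpha, POLA2, the regulatory subunit, was at 3.87 FPKM in the HKR3 library, 9.57 FPKM in the library labelled siTERT and 12.1 FPKM in the control, a difference of -1.42. POLA1, the catalytic subunit, was at 3.82, 5.37 and 6.46 FPKM. The ratio of POLA2 to POLA1 was thus 1.01 in the HKR3 library, 1.78 in the library labelled siTERT and 1.87 in the control. At the length of its shortest coding transcript, POLA2 rests on about 25 estimated fragments in the HKR3 library and 73 in the control. Its counting interval ran from 0.192 to 0.504. A longer transcript would give more fragments. In units of 31 bases, POLA2 also shares 53.1% of its sequence with other genes, the overlapping annotation AP000944.2 sharing the most. Its level is uncertain where fragments were split between them.

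The small primase subunit PRIM1 was at 13.8 FPKM in the HKR3 library, 19.7 FPKM in the library labelled siTERT and 22.2 FPKM in the control. PRIM2, the large primase subunit, was at 9.12, 7.25 and 8.98 FPKM. PRIM1 was lowest in the HKR3 library and PRIM2 was not, but PRIM1 and PRIM2 share 28.2% and 35.9% of their sequence with other genes, so both levels are uncertain.

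The leading and lagging strand polymerases also held 1 gene that did not follow the rest when set against the control. POLD1, the catalytic subunit of polymerase delta, was at 16.5 FPKM in the HKR3 library, 28.7 FPKM in the library labelled siTERT and 31.2 FPKM in the control. Its partner POLD2 was at 85.2, 109 and 114 FPKM, and POLD3 at 3.74, 7.89 and 8.16 FPKM. POLE, the catalytic subunit of polymerase epsilon, was at 12.6, 18.05 and 13.2 FPKM, a difference of -0.06 between the HKR3 library and the control, while its partner POLE2 was at 15.6, 21.2 and 23.5 FPKM. POLE was thus the 1 gene of this group that was highest in the library labelled siTERT. Set directly against that library, POLE had a difference of -0.49 in the HKR3 library. The median of the 9 polymerase and primase genes there was -0.48.

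PCNA and its loader differed from each other. PCNA encodes the sliding clamp that holds polymerases on DNA, and was at 73.8 FPKM in the HKR3 library, 168 FPKM in the library labelled siTERT and 191 FPKM in the control, a difference of -1.36 between the HKR3 library and the control. RFC1 to RFC5 encode the loader that opens the clamp. Of these 5, 0 were at least 1.5-fold lower, beside 12.7% of all genes, and in so few genes that count is near the share. RFC4 was at 37.4, 47.7 and 54.3 FPKM, and RFC2 and RFC5 had differences of -0.41 and -0.36. RFC1, the large subunit, was at 17.0, 16.5 and 17.7 FPKM and RFC3 at 42.1, 43.7 and 41.8 FPKM. The ratio of PCNA to RFC1 was 4.33 in the HKR3 library, 10.2 in the library labelled siTERT and 10.8 in the control.

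Of the genes that bind single strands and finish the lagging strand, LIG1 alone passed the 1.5-fold rule for lower levels with HKR3. That rule was passed by 12.7% of all genes. RPA1, RPA2 and RPA3 encode the single-strand binding complex, and had differences of -0.37, -0.04 and -0.55 in the HKR3 library. RPA3 was at 47.9 FPKM in the HKR3 library, 67.6 FPKM in the library labelled siTERT and 70.5 FPKM in the control, and RPA2 at 49.9, 56.3 and 51.6 FPKM. FEN1, the nuclease that trims flaps between fragments, was at 107, 128 and 128 FPKM, and LIG1, the ligase that seals them, at 12.4, 18.6 and 19.8 FPKM, with differences of -0.26 and -0.64 between the HKR3 library and the control.

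Nucleotide supply genes were lower throughout, with a median difference of -0.79 in the HKR3 library. Together they summed to 337 FPKM in the HKR3 library, 504 FPKM in the library labelled siTERT and 581 FPKM in the control. Between the HKR3 library and the control, the ratio of this sum was 0.580, beside 0.897 for all genes that passed the filter. DUT, which removes dUTP so that uracil is not built into DNA, had the lowest difference of all 56 genes, -1.62, at 21.2 FPKM in the HKR3 library, 51.7 FPKM in the library labelled siTERT and 67.4 FPKM in the control. TK1, the thymidine kinase of the salvage pathway, was at 52.6, 103 and 116 FPKM, a difference of -1.13. RRM2, the subunit of ribonucleotide reductase made in S phase, was at 76.4, 120.3 and 133 FPKM, and its partner RRM1 at 31.4, 36.9 and 44.9 FPKM. RRM2 shares 29.8% of its sequence with other genes, AC007240.1 sharing the most. TYMS, thymidylate synthase, was at 155, 191 and 219.8 FPKM and overlaps ENOSF1 on the opposite strand over 58.2% of its exon bases. All 5 genes were lowest in the HKR3 library and highest in the control.

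UNG, the glycosylase that takes uracil out of DNA and so acts on the same lesion that DUT prevents, was at 50.9 FPKM in the HKR3 library, 103 FPKM in the library labelled siTERT and 118 FPKM in the control, a difference of -1.20. DTL, the substrate receptor of the ligase that destroys CDT1 at replicating forks, was at 9.97, 12.8 and 13.2 FPKM. SLBP, which binds the stem loop of histone messenger RNAs, was at 68.3, 82.4 and 96.5 FPKM. UNG stood apart from these, with the other two at differences of -0.38 and -0.49.

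Among the genes that copy chromatin and DNA methylation, UHRF1 was the lowest. UHRF1 finds half-methylated DNA behind the fork. It was at 7.70 FPKM in the HKR3 library, 21.2 FPKM in the library labelled siTERT and 22.2 FPKM in the control. The difference between the HKR3 library and the control was -1.41. Of its sequence, 26.96% is shared with other genes, AC112777.1 sharing the most. DNMT1, the methyltransferase that UHRF1 recruits, was at 22.8, 34.0 and 32.03 FPKM. The ratio of UHRF1 to DNMT1 was 0.337 in the HKR3 library, 0.624 in the library labelled siTERT and 0.692 in the control. CHAF1B, a subunit of the histone chaperone CAF-1, was at 2.76, 4.40 and 6.10 FPKM, and CHAF1A, its large partner, at 25.04, 31.05 and 33.2 FPKM.

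The fork protection genes went both ways. TIMELESS and TIPIN encode 2 proteins that bind each other at the fork, and CLSPN encodes claspin, which travels with them and relays checkpoint signals. TIMELESS was at 18.5 FPKM in the HKR3 library, 26.6 FPKM in the library labelled siTERT and 33.1 FPKM in the control, a difference of -0.81. TIPIN was at 21.6, 18.3 and 17.4 FPKM, a difference of 0.30 and the highest of all 56 genes. The ratio of TIMELESS to TIPIN was thus 0.855 in the HKR3 library, 1.45 in the library labelled siTERT and 1.91 in the control, although the counting interval for TIPIN, from 0.936 to 1.65, included 1. CLSPN was at 3.54, 6.98 and 6.58 FPKM.

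**Figure D3:**
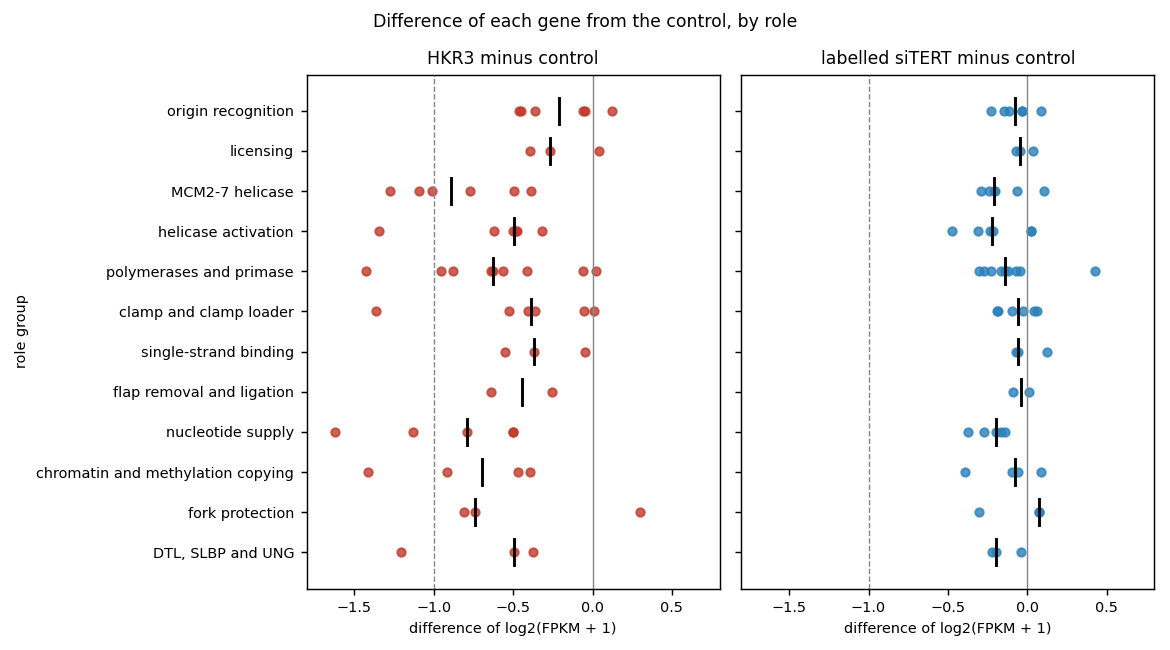
Difference of log2(FPKM + 1) from the control for each replication gene, by role group, in the HKR3 library (left) and the library labelled siTERT (right). Points are genes, black bars are group medians and the dashed line marks 2-fold lower. Medians in the HKR3 library ran from -0.89 for the MCM2-7 helicase to -0.21 for origin recognition.

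By role, then, the medians in the HKR3 library were -0.89 for the helicase, -0.79 for nucleotide supply, -0.74 for fork protection, -0.69 for chromatin and methylation copying and -0.63 for polymerases. They were -0.49 for helicase activation and for the group of DTL, SLBP and UNG, -0.45 for flap removal and ligation, -0.39 for the clamp and its loader, -0.37 for single-strand binding, -0.27 for licensing and -0.21 for origin recognition. Groups held 2 to 9 genes and most of their ranges overlapped, but all 5 nucleotide supply genes, the highest at -0.50, had lower differences than any origin recognition or licensing gene, the lowest of which was ORC1 at -0.46. This separation was lost when the median of genes of like mean FPKM was subtracted, with TYMS at -0.20 and RRM1 at -0.36, beside ORC2 at -0.49, ORC1 at -0.48 and ORC3 at -0.40. Whether groups differ from each other could not be tested with 1 library each. The 5 genes not below 0 were GMNN, ORC6, PRIM2, RFC3 and TIPIN, each from a different role, and ORC4, ORC5, POLE, RFC1 and RPA2 were also above 0 after scaling to TPM.

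Highly expressed genes were lower in the HKR3 library as a whole, and most of these replication genes are well expressed. Among 20 bins of all genes by mean FPKM, the median difference was -0.30 in the highest bin and 0.02 in the lowest. With the median of its own bin subtracted from each gene, the replication genes had a median of -0.43, and 8 of 56 were at least 2-fold lower, beside 2.56% of all genes. Of the 8 hepatocyte and hepatoma markers, all but FGB were also lower in the HKR3 library, as with APOA1 at 713 FPKM in the HKR3 library, 1575 FPKM in the library labelled siTERT and 1461 FPKM in the control. Their part in the result was not tested. Scaling all libraries to an equal sum, as TPM does, moved the median of all genes to 0.12 and the median of the replication genes to -0.34, and 7 of 56 were at least 2-fold lower, beside 1.90% of all genes.

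**Figure D4:**
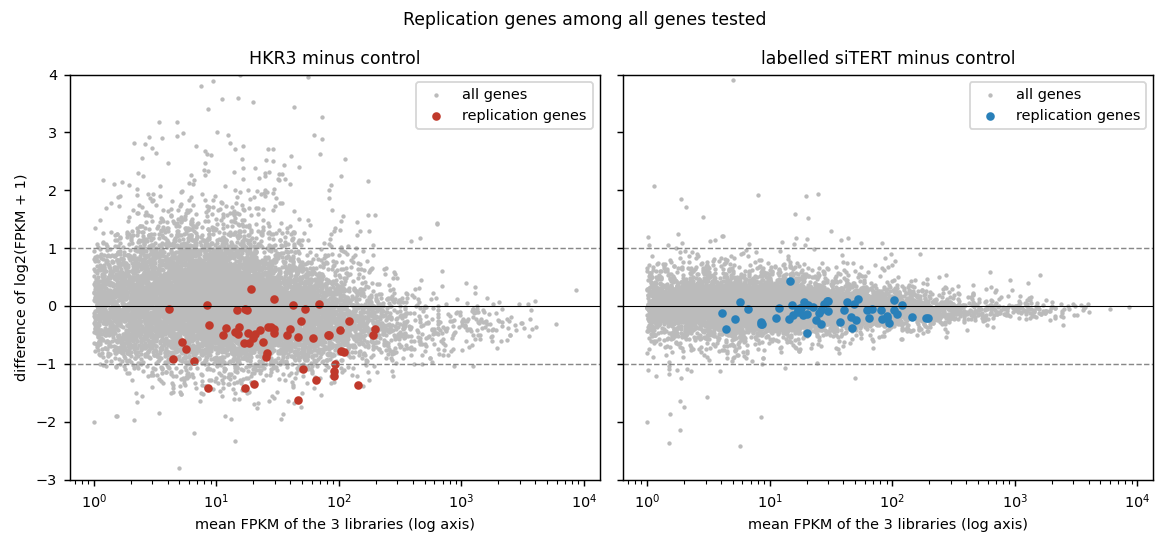
Difference of log2(FPKM + 1) from the control against the mean FPKM of the 3 libraries (log axis) for all 10974 genes (grey) and the replication genes (coloured), in the HKR3 library (left) and the library labelled siTERT (right); dashed lines mark 2-fold, and 2 grey points above 4 are not drawn on the left. The replication genes lie mostly below 0 on the left, down to -1.62, and close to 0 on the right.

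Against the same control, the library labelled siTERT, in which TERT was not reduced, differed little. The median of the 56 genes was -0.11 against -0.01 over all genes, and 43 of 56 were below 0, beside 52.6% of all genes. Of the 56 genes, 0 were at least 2-fold lower, beside 0.2% of all genes, and 0 at least 2-fold higher, beside 0.282%. Likewise 0 were at least 1.5-fold lower, beside 1.24%, and 0 at least 1.5-fold higher, beside 1.69%. The lowest was GINS2, at 20.6 FPKM in the library labelled siTERT and 28.9 FPKM in the control, a difference of -0.47. CHAF1B and DUT followed, with differences of -0.39 and -0.38. The highest was POLE, at 18.05 FPKM in the library labelled siTERT and 13.2 FPKM in the control, a difference of 0.43, and the only one of the 56 genes whose counting interval, from 1.26 to 1.49, lay above 1. That interval lay below 1 for 18 genes and included 1 for 37, again with no share over all genes to set beside these counts. After scaling to TPM the median of the 56 genes was -0.07 and that of all genes 0.03.

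Both comparisons above use the same control library, so the HKR3 library was also set directly against the library labelled siTERT. The median of the 56 genes was -0.40, with 6 of 56 at least 2-fold lower, beside 1.38% of all genes, and 0 at least 2-fold higher, beside 4.11%. These 6 were UHRF1 at -1.35, DUT at -1.25, PCNA at -1.17, POLA2 at -1.12, MCM5 at -1.07 and UNG at -1.0. At least 1.5-fold lower levels were seen in 15 of 56, beside 9.71% of all genes. The HKR3 library held the lowest level of the 3 for 49 of the 56 genes, or 87.5%, beside 44.8% of all genes.

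A second list of 49 genes of the same pathway, which includes firing kinases, further polymerase subunits, RNase H2, histone chaperones, G1/S cyclins and E2F factors, was examined in the same way and was also chosen with earlier results known. All 49 passed the filter, and their median difference in the HKR3 library was -0.36. Of the 49, 3 were at least 2-fold lower on the log2(FPKM + 1) scale, beside 2.52% of all genes. None was at least 2-fold higher on it, beside 5.52%. By FPKM alone, FBXO5 and SAMHD1 were also over 2-fold lower, at ratios of 0.494 and 0.4998 to the control. MCM9 was over 2-fold higher by FPKM, at a ratio of 2.23, on about 14 and 6 estimated fragments. On the log2(FPKM + 1) scale, at least 1.5-fold lower were 19, or 38.8%, beside 12.7% of all genes. At least 1.5-fold higher were 2, POLD4 and MCM9, beside 15.3%. In the library labelled siTERT their median was -0.12.

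The largest differences of this second list were all towards lower levels in the HKR3 library. E2F2, an activating E2F factor, was at 1.84 FPKM in the HKR3 library, 6.35 FPKM in the library labelled siTERT and 6.93 FPKM in the control. CCNE1, cyclin E1, which starts S phase with CDK2, was at 2.96, 7.85 and 9.58 FPKM, and WDR76 was at 3.21, 5.85 and 7.71 FPKM. MTHFD1, a folate enzyme that feeds thymidylate and purine synthesis, was at 18.01, 30.1 and 36.0 FPKM. FBXO5, which encodes the inhibitor EMI1 of the anaphase-promoting complex, was at 11.3, 22.5 and 22.9 FPKM, and TOP2A, a topoisomerase that untangles sister DNA, at 44.3, 72.8 and 84.6 FPKM. All 6 were lowest in the HKR3 library and highest in the control.

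The promoters of the replication genes were searched for the E2F motif, to see whether it separated genes that were lower in the HKR3 library from those that were not. RefSeq windows (build GRCh38.p14, which is not the build of the deposited table) from 250 bases before to 50 bases after a start site were found for 50 of the 56 genes, 68 windows in all. The motif was spelled TTTNGCGC, read on both strands, so that a palindromic site counts on each. It was present in 20 of 68 windows, or 29.4%, beside 2.80% of the 13082 windows of all genes that passed the filter. Among genes with a window, 7 of 18 of those at least 1.5-fold lower with HKR3 had a match, or 38.9%, and 13 of 32 of the others, or 40.6%. MCM4 and MCM5, both at least 2-fold lower, had no window. Counted by gene, the match was thus about as frequent in both, beside 3.85% of all genes with a window. Counted by window, it was in 7 of 28 of the lower genes, or 25%, and in 13 of 40 of the others, or 32.5%. Most of the others were also below 0, so this split does not set lower genes against genes that were not lower. The match is a description of these letters and not of binding.

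The stretches around the motif are shown for 4 genes that were at least 2-fold lower with HKR3 and for 4 whose differences lay between -0.06 and 0.30, with the motif in capitals and each read 5′ to 3′ on the strand of the gene. The lower ones are DUT (chr15:48332140-48332207, plus strand), POLA2 (chr11:65261879-65261946, plus strand), UHRF1 (chr19:4909954-4910021, plus strand) and MCM6 (chr2:135876558-135876625, minus strand). The others are GMNN (chr6:24775303-24775370, plus strand), ORC6 (chr16:46689506-46689573, plus strand), POLE (chr12:132687323-132687390, minus strand) and TIPIN (chr15:66356714-66356781, minus strand).
DUT: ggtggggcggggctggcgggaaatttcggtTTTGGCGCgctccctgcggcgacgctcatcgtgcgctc
POLA2: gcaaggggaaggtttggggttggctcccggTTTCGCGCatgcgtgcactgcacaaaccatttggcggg
UHRF1: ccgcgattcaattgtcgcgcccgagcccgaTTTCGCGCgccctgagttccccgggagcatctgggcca
MCM6: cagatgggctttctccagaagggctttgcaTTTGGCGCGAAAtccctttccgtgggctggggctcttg
GMNN: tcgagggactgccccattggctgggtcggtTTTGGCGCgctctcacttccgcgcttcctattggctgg
ORC6: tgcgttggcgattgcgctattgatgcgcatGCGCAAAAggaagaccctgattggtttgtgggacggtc
POLE: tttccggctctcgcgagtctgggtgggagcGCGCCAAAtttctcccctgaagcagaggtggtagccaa
TIPIN: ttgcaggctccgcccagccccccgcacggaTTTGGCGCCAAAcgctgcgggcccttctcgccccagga

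The stretches of DUT and GMNN share a run of 17 bases that includes the motif, while DUT had the lowest difference of the 56 genes, -1.62, and GMNN one of 0.04. The stretches of MCM6 and TIPIN each show 2 overlapping matches on opposite strands, at differences of -1.09 and 0.30, and the MCM6 window holds 4 matches in all. PCNA, at -1.36, has 2 windows, and neither held these letters. DUT, UHRF1, GMNN and TIPIN also have windows other than those shown, and none of these held the letters. Which start site these cells used was not examined.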

How the data were processed

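Total RNA was isolated with TRIzol, and stranded TruSeq libraries were made from messenger RNA, per the labels' protocols. The table deposited by the authors holds a value per gene and library that was read as FPKM, from the tools named and from its values and header. The tools named are Cuffdiff 2.2.1, Cufflinks and STAR 2.5.0, and the build is hg19, per the submitters' processing notes. Settings, use of strand and any further scaling between libraries are not stated there.

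Identifiers were matched to symbols for 19310 of 19869 entries. Entries that shared a symbol were summed, and 4 short noncoding RNAs were left out. Differences of log2(FPKM + 1), with a pseudocount of 1 FPKM, were computed over the 10974 genes that averaged 1 FPKM or more, with Python 3.11.15 and pandas 2.3.3. The calculation was tested on simulated data. With 1 library per group, a 2-fold size rule took the place of a test, and no p-value is given. A second rule of 1.5-fold was used beside it.

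Depth was estimated from low genes with a single annotated transcript of 1000 bases or more: 63 of 202 such genes in the HKR3 library, 72 of 214 in the library labelled siTERT and 64 of 183 in the control had a value within 25% of that of 1 fragment. Counting intervals are exact binomial (Clopper-Pearson) at 95%. Shared sequence and overlaps used GENCODE 29. Promoters came from RefSeq. All members may be named. Values are given for those past the size rule, for every subunit of MCM2-7, GINS and ORC, for the extremes of each group, and for the 6 other replication genes with the largest difference. The members and lists were chosen with earlier results of these data known. The alternatives tried were other pseudocounts, filters and scalings, centring on all genes or on genes of like level, and leaving out members that share sequence. A further check of the cell line is not reported here.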

Additional observations from a re-analysis of the deposited data

How the results depend on the processing

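The lower levels of the replication genes in the HKR3 library kept their direction under every alternative run. The count of members at least 2-fold lower, 10 of 56, ranged from 7 after either scaling to 12 with a pseudocount of 0.1 FPKM, and was 8 without the 7 members that share sequence or exons with other genes, an alternative chosen after seeing the data. It was 6 against the library labelled siTERT in place of the control, and 21 under the 1.5-fold rule. The median ran from -0.50 to -0.33, and all 12 role medians stayed below 0. Some of these moved by over 1.5 times: after scaling to TPM and without ZBTB48, origin recognition was at -0.0669 and -0.0606, licensing at -0.12 and -0.11, the clamp and its loader at -0.24 and -0.23, and single-strand binding at -0.22 and -0.21. Flap removal and ligation was at -0.29 without ZBTB48, fork protection at -0.44 with a pseudocount of 5 FPKM, licensing at -0.12 when centred on genes of like level, and origin recognition at -0.36 with a mean of at least 5 FPKM. Against the library labelled siTERT, the 6 members became 3 with a pseudocount of 5 FPKM and 3 when centred on genes of like level. No share over all genes was computed for these settings. Under the 1.5-fold rule they became 15, beside 9.71% of all genes.

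Single members near 0 turned. After scaling to TPM, the differences were 0.0878 for ORC4, 0.0874 for ORC5, 0.0866 for POLE, 0.0973 for RFC1 and 0.109 for RPA2. After scaling to the same sum without ZBTB48 they were 0.0876 for ORC4, 0.0929 for ORC5, 0.0913 for POLE, 0.103 for RFC1 and 0.115 for RPA2. Centred on genes of like level, PRIM2 was at -0.0897 and RPA2 at 0.0996. In the library labelled siTERT, the median of -0.11 was -0.0698 after scaling to TPM and -0.0686 without ZBTB48.

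Of the second list, 3 genes were at least 2-fold lower, beside 2.52% of all genes. This became 0 with a pseudocount of 5 FPKM, beside 0.847%, and 19 under the 1.5-fold rule, beside 12.7%. With a pseudocount of 0.1 FPKM, 1 was higher, beside 874 of all 10974 genes, and 2 were higher under the 1.5-fold rule, beside 15.3%. Counts over all genes moved more. In the HKR3 library, 606 higher genes became 238 with a pseudocount of 5 FPKM, 991 after scaling to TPM and 1674 under the 1.5-fold rule. The 277 lower genes became 488 and 93 with pseudocounts of 0.1 and 5 FPKM, 165 without ZBTB48 and 1394 under the 1.5-fold rule. In the library labelled siTERT, 31 higher genes became 103 and 10 with the same pseudocounts, 17 with a mean of at least 5 FPKM, 47 after scaling to TPM and 186 under the 1.5-fold rule. The 22 lower genes became 57 and 3, 5 with that filter, 37 without a filter and 136 under the 1.5-fold rule. The cause of these moves was not tested. No paired analysis was possible because each group held 1 library.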

Other observations

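Further letters in the promoter windows of the replication genes were counted as a description. The CCAAT box, spelled CCAAT and read on both strands, was present in 38 of 68 windows of the replication genes, or 55.9%, beside 35.3% of the windows of all genes that passed the filter. The CHR element, spelled TTTGAA, which is known from genes of G2 and mitosis, was present in 3 of 68 windows, or 4.41%, beside 10.6%. The second list of replication genes held the E2F motif in 7 of 48 windows, or 14.6%, and the CHR letters in 6 of 48, or 12.5%.

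A few genes of the second list were higher in the HKR3 library, against the direction of most of the pathway. ASF1A, a histone chaperone, was at 37.2 FPKM in the HKR3 library, 24.4 FPKM in the library labelled siTERT and 24.7 FPKM in the control, while its paralog ASF1B was at 42.3, 60.9 and 68.9 FPKM. E2F3 was at 9.74, 6.61 and 6.44 FPKM, while E2F1 was at 22.2, 39.9 and 41.9 FPKM. POLD4, the smallest subunit of polymerase delta, was at 73.8, 54.7 and 46.5 FPKM, while POLD1 and POLD3 were lower in the HKR3 library. DBF4, the partner of the kinase CDC7 that fires origins, was at 14.9, 11.4 and 11.003 FPKM. These genes were chosen after their values were seen. POLD4 and DBF4 share 38.6% and 28.6% of their sequence with other genes, so their levels are uncertain. Over the 56 replication genes, the difference between the HKR3 library and the control had a Spearman correlation across genes of -0.15 with the level in the library labelled siTERT, and over all 10974 genes one of -0.25; genes of one library are not independent replicates.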
